A study of Homo sapiens with 8 samples.

Results

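The lysosome was examined through 44 genes: 6 membrane proteins, 21 hydrolases and their helper proteins, 14 subunits of the proton pump that acidifies it, and the 3 transcription factors TFEB, TFE3 and MITF. They were taken by gene symbol from the 62700 rows of the deposited count table. Of these rows, 17535 had enough counts to be tested, among them each of the 44. The cells were THP-1, a human monocytic leukaemia line, differentiated to macrophages by 72 h of PMA, a phorbol ester, at 50 ng/mL and made into foam cells, which are macrophages filled with cholesteryl esters, with acetylated low-density lipoprotein (AcLDL). The 4 AF libraries came from foam cells given 0.5 µM auranofin, a gold-based drug whose best known target is thioredoxin reductase. The 4 DMSO libraries came from foam cells given the vehicle alone, below 0.1% by volume. Per the sample protocol, drug or vehicle was added 24 h before the 48 h of AcLDL and kept on to the end, while the design text of the series has treatment follow the lipid load. Both groups share the line, the PMA and the lipid load. Poly-A RNA was sequenced with stranded libraries made from 250 ng of total RNA. The question was what auranofin does to gene expression in foam cells.

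Lysosomes break down the contents of endocytosed particles, AcLDL included, and of autophagosomes. Their hydrolases work at acid pH, which the vacuolar proton pump (V-ATPase) maintains: its cytosolic V1 sector splits ATP and its membrane V0 sector carries the protons. TFEB, TFE3 and MITF belong to the MiT/TFE family of transcription factors, which bind E-box-type sites with the core CACGTG near many lysosomal genes. They are controlled largely through their movement between cytosol and nucleus, which RNA levels do not measure.

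RefSeq promoter windows, running from 250 bases before to 50 bases after a gene's start, were at hand for 31 of the 44 genes. Those without one were ARSA, ASAH1, ATP6V0E1, ATP6V1A, ATP6V1B2, ATP6V1C1, ATP6V1H, HEXA, LAMP2, MANBA, NAGLU, PSAP and SGSH. CACGTG was present in a window of 10 of these 31 genes (32.3%), against 8.78% of the 27305 genes with a window. Its extended form TCACGTGA was present in 7 of 31 (22.6%) against 1.18%, and that form with a further G before and C after it in 4 of 31 (12.9%) against 0.421%. Each longer form contains the shorter ones, and all read the same on both strands. Such sites were already known near many lysosomal genes, so these higher shares are no independent finding. The comparison took in all genes with a window, whether or not they were expressed here. LAMP1 had 6 CACGTG cores, a number reached by 1 of all 35116 windows. The 250 bases upstream of its start, on GRCh38.p14, are shown because LAMP1 is one of the genes that rose and its cores are so close together. Capitals mark the 5 whole cores, and the sixth begins at the last base shown and runs over the start.
LAMP1, chr13:113296989-113297238 (plus strand): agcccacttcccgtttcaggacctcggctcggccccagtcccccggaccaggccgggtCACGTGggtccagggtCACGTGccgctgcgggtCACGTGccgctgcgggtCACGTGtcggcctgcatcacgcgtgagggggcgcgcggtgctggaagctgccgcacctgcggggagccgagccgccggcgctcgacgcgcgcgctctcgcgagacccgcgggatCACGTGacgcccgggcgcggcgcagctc
The sites of 7 further genes are shown because none of these genes rose with auranofin and ARSB fell. Each has 30 bases around 1 site, with TCACGTGA, or in ARSB the CACGTG core, in capitals.
ARSB, chr5:78986101-78986130 (minus strand): taattcaataagCACGTGactaaaggattt
ATP6V0D1, chr16:67481199-67481228 (minus strand): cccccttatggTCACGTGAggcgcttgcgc
ATP6V1G1, chr9:114587699-114587728 (plus strand): acgctgtgcggTCACGTGAcaacgggggcg
CLN3, chr16:28492058-28492087 (minus strand): cgcgggtgctgTCACGTGAtccgacaaacg
GAA, chr17:80101493-80101522 (plus strand): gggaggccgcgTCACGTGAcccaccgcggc
GALNS, chr16:88857104-88857133 (minus strand): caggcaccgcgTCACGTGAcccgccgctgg
MCOLN1, chr19:7522571-7522600 (plus strand): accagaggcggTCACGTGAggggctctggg
These matches describe the sequence and were not measured as binding. The 7 genes with TCACGTGA were ATP6V0D1, ATP6V1G1, CLN3, GAA, GALNS, LAMP1 and MCOLN1. Their median log2 fold change, AF over DMSO, was 0.01, and 1 of them (LAMP1) rose and 0 fell. The other genes with a window, none holding TCACGTGA, had a median of 0.08, with 3 that rose and 1 that fell. Over all 17535 genes tested 7.62% rose and 7.81% fell. TFE3, ATP6V1E1 and ATP6V0A1 rose without a CACGTG in their windows.

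Libraries held between 19336073 (DMSO replicate 4) and 32325981 (AF replicate 2) counts. AF replicate 1 stood apart, where ribosomal RNA entries took 34.4% of counts and in no other library more than 0.956%. Levels are therefore CPM, a gene's count as a proportion of the library's total, with totals scaled by TMM, a method that sets them by the bulk of genes. Nothing in the labels says that libraries came from separate cultures, and their names share stems. A p-value here thus reflects spread among these 8 libraries, possibly technical in part or whole. In RNA from whole cultures, fewer cells of a kind and less RNA per cell cannot be told apart. Of 8 macrophage markers all were detected, with a summed level of 3709 to 4150 CPM in AF and 4343 to 5121 CPM in DMSO libraries. CD14 and ITGAM were higher and LYZ and MSR1 lower in AF, all 4 with an adjusted p under 0.05 in edgeR. The T cell, B cell, epithelial, fibroblast and erythroid lists summed to at most 2.601 CPM in any library, and the endothelial list, mostly PECAM1, to between 300.5 and 327.8 CPM. The part of this shift in macrophage markers in the results below was not tested.

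Auranofin moved the lysosomal genes little. In edgeR's quasi-likelihood test with Benjamini-Hochberg adjustment over all 17535 genes, 6 of the 44 rose (13.6%), against 7.62% of all genes, and 1 fell (2.27%), against 7.81%. The 7 make 15.9% of the 44, near the 15.4% of all genes that were called in either direction. The 6 that rose were TFE3, LAMP1, SGSH, ATP6V1E1, MANBA and ATP6V0A1, and the one that fell was ARSB. The median log2 fold change of the 44 was 0.11, against 0.01 over all genes tested, and single values ran between -0.27 and 0.33. It was above 0 in 31 genes and below 0 in 13. With library totals alone in place of TMM the median of the 44 was -0.04, that of all genes -0.14, and 16 of the 44 lay above 0. The difference between the 44 and all genes was 0.10 under both scalings. A change of scaling shifts all genes by much the same amount, so this sameness adds no support. Of all called genes 49.4% were higher in AF under TMM and 20.7% with library totals alone.

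Under TMM, the spread among these 8 libraries also bounds how far these genes moved. That spread is possibly technical in part or whole, so the bounds may not hold for further cultures. With library totals alone the values lay lower, between -0.42 (ARSB) and 0.17 (TFE3). The 95% interval of the log2 fold change stayed within -0.5 and 0.5, a 1.41-fold change either way, in 43 of the 44 genes. The exception was ATP6V0C, whose interval reached -0.52, and all 44 stayed within 2-fold. All 4 AF values stood above all 4 DMSO values in 12 of the 44 genes (27.3%, against 9.86% of all genes), and below them in 1 (2.27%, against 9.68%). The levels of the 44 added up to between 24922 and 26578 CPM in AF and between 23727 and 24775 CPM in DMSO libraries, so the sums did not overlap. With library totals alone they did, since AF replicate 1 then had 16929 CPM, against 26928 to 27830 CPM in the other AF and 25462 to 26064 CPM in the DMSO libraries. PPT1 alone supplied 9558 to 11282 CPM of this in AF and 9423 to 10269 CPM in DMSO libraries. Without it the sums were 15296 to 15807 CPM in AF and 14038 to 14869 CPM in DMSO libraries, again with no overlap.

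**Figure D1:**
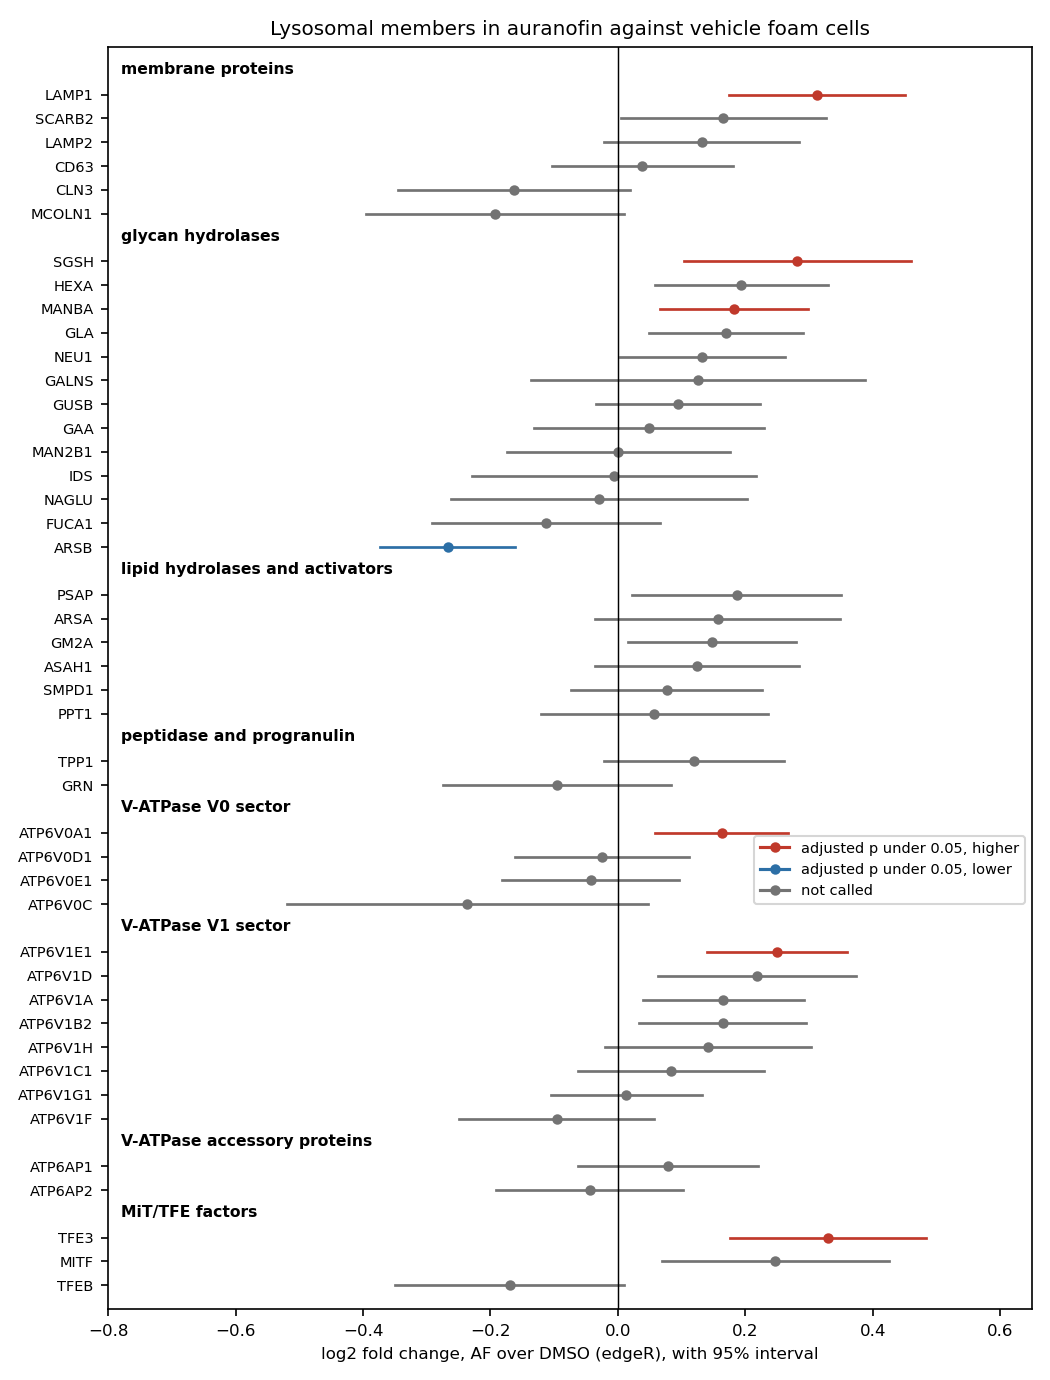
Log2 fold change of each of the 44 genes, AF over DMSO, from edgeR (x axis, log2 units), with its 95% interval, grouped by role (y axis); red marks genes that rose, blue the one that fell and grey those not called. The values lie between -0.27 (ARSB) and 0.33 (TFE3), and with library totals alone in place of TMM the median of the 44 was -0.04 in place of 0.11.

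Among the 6 membrane proteins, LAMP1 rose and the other 5 did not pass the test. LAMP1 (chr13:113297241-113323672, plus strand, GRCh38) encodes a heavily glycosylated protein that lines the inside of the lysosomal membrane. Replicates 1 to 4, in this order here and below, had 348, 391.7, 375 and 347 CPM in the AF libraries, against 303, 301, 277 and 295 CPM in the DMSO libraries. Every AF library lay above every DMSO library. The log2 fold change was 0.31 ± 0.065 (SE, n = 4 per group), a 1.24-fold higher level, with an adjusted p of 0.0048 in edgeR. LAMP2 (chrX:120427827-120469365, minus strand), its close relative, which also serves as the receptor of chaperone-mediated autophagy, had 507, 519, 543 and 597 CPM in the AF libraries, against 487, 485, 475 and 530.3 CPM in the DMSO libraries. Its groups overlapped through DMSO replicate 4, which was above AF replicates 1 and 2. The log2 fold change of LAMP2 was 0.13 ± 0.072, with an adjusted p of 0.237 in edgeR. SCARB2, the receptor that carries glucocerebrosidase to lysosomes, was the nearest to the threshold of these 5, at 0.17 (adjusted p = 0.154, edgeR). CD63, a tetraspanin of late endosomes, was the most abundant of the 6 per length at 464 CPM per kb in AF and 452 in DMSO libraries, with a log2 fold change of 0.04. The calcium channel gene MCOLN1 and CLN3, whose loss causes a neuronal ceroid lipofuscinosis, had values below 0, at -0.19 and -0.16, and neither was called. CLN3 shares 25.2% of its exon bases with another gene on the same strand, so its counts are uncertain.

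Of the 13 genes for glycan hydrolases, 2 rose, 1 fell and 10 were not called. The called genes make 23.1% of the 13, against 15.4% of all genes. ARSB (chr5:78777209-78986087, minus strand), the sulfatase that removes 4-sulfate groups from dermatan and chondroitin sulfate, had 76.5, 72.8, 75.6 and 78.4 CPM in the AF libraries, against 92.1, 89.0, 91.4 and 92.3 CPM in the DMSO libraries. The AF values lay in a narrow band wholly below the DMSO values. The log2 fold change was -0.27 ± 0.050, with an adjusted p of 0.0024 in edgeR, the smallest of the 44. SGSH (chr17:80206716-80220923, minus strand), the sulfatase that acts on N-sulfated glucosamine in heparan sulfate, had 97.9, 103, 95.5 and 86.8 CPM in the AF libraries, against 76.8, 90.9, 81.5 and 66.1 CPM in the DMSO libraries. AF replicate 4 lay below DMSO replicate 2, so the groups overlapped. SGSH rose by 0.28 ± 0.083 on the log2 scale (adjusted p = 0.0337, edgeR). MANBA (chr4:102630770-102760994, minus strand), which encodes beta-mannosidase, had 178, 191, 196 and 204 CPM in the AF libraries, against 176, 165, 164 and 173 CPM in the DMSO libraries. The lowest AF and the highest DMSO library, both replicate 1, differed by little, and the groups did not overlap. MANBA rose by 0.18 ± 0.054 (adjusted p = 0.0347, edgeR), a call lost when libraries sharing a name stem were summed and with the name suffix as a block.

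The remaining 10 glycan hydrolase genes had log2 fold changes between -0.11 (FUCA1, alpha-fucosidase) and 0.19 (HEXA, the alpha subunit of beta-hexosaminidase). HEXA missed the threshold with an adjusted p of 0.0515 in edgeR, and GLA, alpha-galactosidase A, with 0.0551 at a log2 fold change of 0.17. The 4 AF values of both genes stood above the 4 DMSO values. NEU1, the lysosomal sialidase, had 0.13 (adjusted p = 0.157, edgeR). The genes for acid alpha-glucosidase (GAA), beta-glucuronidase (GUSB), alpha-mannosidase (MAN2B1), galactosamine-6-sulfatase (GALNS), N-acetylglucosaminidase (NAGLU) and iduronate-2-sulfatase (IDS) lay between -0.03 and 0.13. MAN2B1, IDS and NAGLU share 21.2%, 17.4% and 12.6% of their exon bases with other genes on the same strand.

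None of the 6 genes for lipid hydrolases and their activators was called, though all 6 values were above 0, between 0.06 and 0.19, under TMM. With library totals alone 3 of the 6 lay above 0 and PPT1, SMPD1 and ASAH1 below it. PSAP, the precursor of the saposins that help enzymes reach membrane lipids, came nearest, at 0.19 (adjusted p = 0.116, edgeR) and with no overlap of the groups. GM2A, the activator protein for ganglioside breakdown, had 0.15 (adjusted p = 0.121, edgeR), also without overlap. The acid ceramidase gene ASAH1 had 0.12, and its groups did not overlap either. PPT1, which removes palmitate from proteins, was the most abundant of the 44 at 2560 CPM per kb in AF and 2460 in DMSO libraries, with a log2 fold change of 0.06. On the opposite strand 23.4% of its exon bases are covered by another gene, CAP1, so its level is uncertain if reads were counted without strand. The sphingomyelinase gene SMPD1 and the sulfatide sulfatase gene ARSA were not called. Of the other two hydrolase-related genes, TPP1, a tripeptidyl peptidase, had 0.12 and GRN, the precursor of lysosomal granulins, -0.10, and neither was called.

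**Figure D2:**
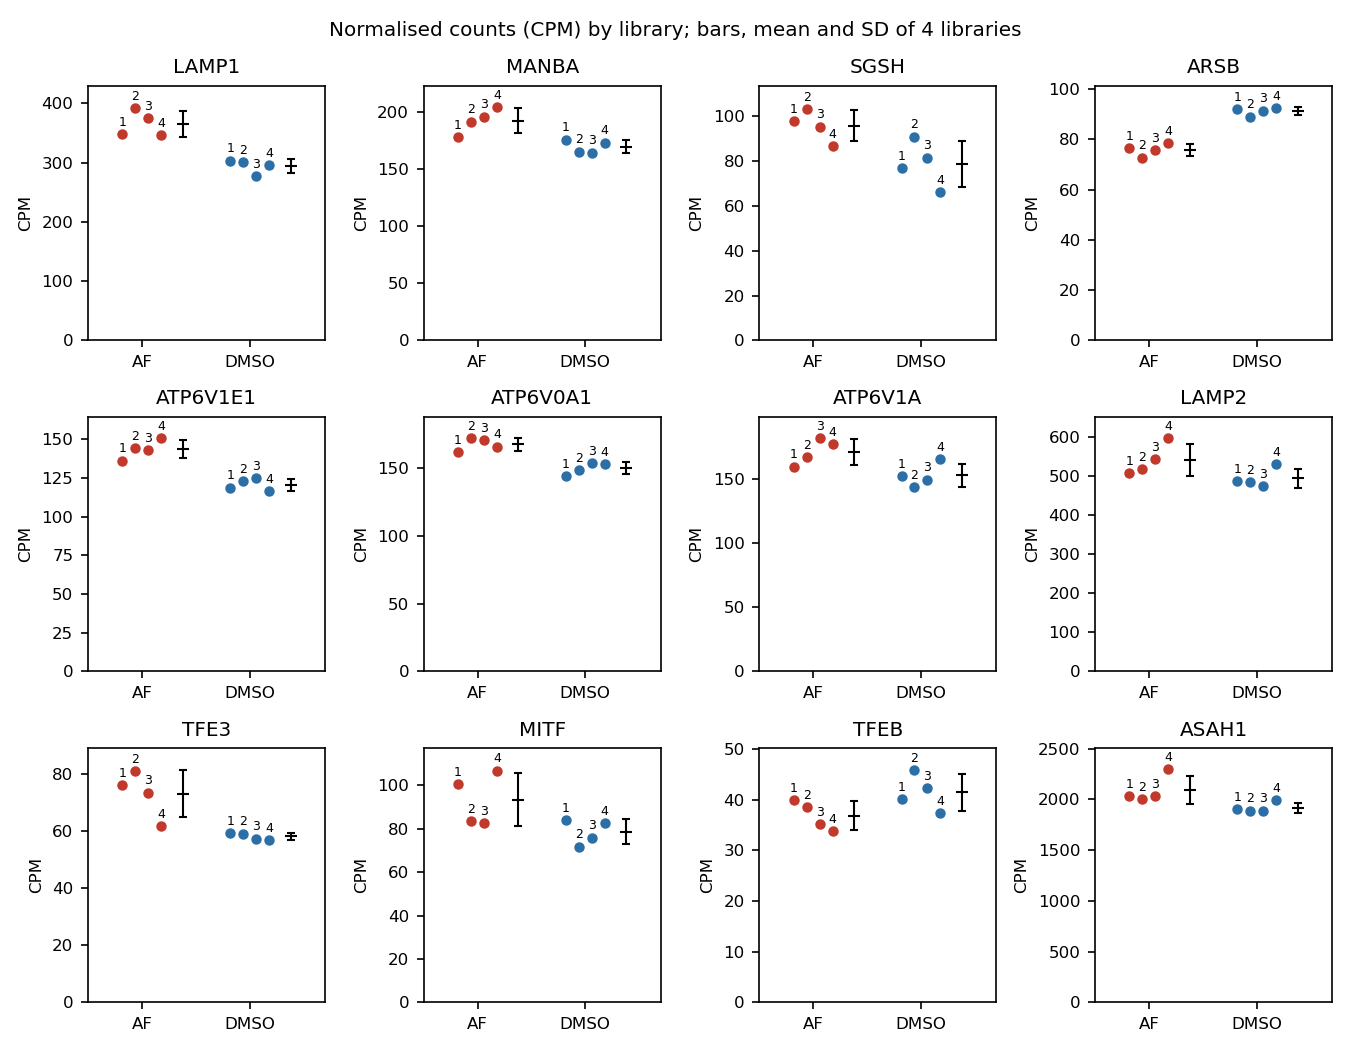
TMM-scaled CPM (y axis, from 0) in each of the 4 AF (red) and 4 DMSO (blue) libraries for 12 genes, with the replicate number above each point and bars for the mean and SD of 4 libraries. AF libraries lie wholly above DMSO libraries for LAMP1, MANBA, ATP6V1E1, ATP6V0A1, TFE3 and ASAH1, wholly below them for ARSB, and overlap for SGSH, ATP6V1A, LAMP2, MITF and TFEB.

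The proton pump was covered by 4 V0 subunits, 8 V1 subunits and 2 accessory proteins, of which 2 rose, 0 fell and 12 were not called. The called genes make 14.3% of these 14, near the 15.4% of all genes. ATP6V1E1 (chr22:17592136-17628818, minus strand), a subunit of the peripheral stalks that hold V1 to V0, had 136, 144, 143 and 150.5 CPM in the AF libraries, against 119, 123, 125 and 116 CPM in the DMSO libraries. The groups were well apart. The log2 fold change was 0.25 ± 0.052 with an adjusted p of 0.0048 in edgeR. ATP6V0A1 (chr17:42458844-42522611, plus strand), an isoform of the large membrane subunit that forms the proton path with the c ring, had 162, 172, 170.4 and 166 CPM in the AF libraries, against 144, 148, 153 and 153 CPM in the DMSO libraries. Its groups did not overlap, and it rose by 0.16 ± 0.049 (adjusted p = 0.0352, edgeR), also a call lost with summed stems and with the suffix block. ATP6V1A (chr3:113747019-113812056, plus strand), the catalytic subunit, had 159, 167, 181 and 177 CPM in the AF libraries, against 152, 144, 149 and 165 CPM in the DMSO libraries. DMSO replicate 4 lay above AF replicate 1, and the log2 fold change of 0.17 ± 0.059 had an adjusted p of 0.0731 in edgeR. ATP6V1B2, the partner of ATP6V1A in the ATP-splitting ring, had 0.16 (adjusted p = 0.0865, edgeR), with no overlap of the groups. ATP6V1D, of the turning central stalk, had 0.22 (adjusted p = 0.0561, edgeR).

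Among the 44, values of the V1 subunits lay mostly above 0 and those of the V0 subunits mostly below, with 1 call in each sector. The V1 median was 0.15, and 7 of 8 values were above 0, or 4 of 8 with library totals alone. In V0, 1 of 4 was above 0, with a median of -0.03, but all 4 were with libraries 1 and 4 of each group alone. V0 subunits outside the 44 went both ways: ATP6V0B (0.15), ATP6V0D2 (0.09) and TCIRG1 (0.07) lay above 0, and ATP6V0A2 (-0.13) and ATP6V0E2 (-0.16) below. None of them was called. The contrast between the sectors thus depends on which subunits are among the 44, and the difference was not tested. ATP6V0C, the proteolipid of the proton-carrying ring, had the lowest value of the pump genes among the 44, -0.24 ± 0.133 (adjusted p = 0.252, edgeR). However, 72.1% of its exon bases are shared with other genes on the same strand in GENCODE 29, and its value was 0.10 with libraries 1 and 4 of each group alone. The accessory proteins ATP6AP1 and ATP6AP2 were not called.

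Levels per kb of transcript differed widely between subunits that assemble into a single complex. ATP6V1F, of the central stalk, stood at 215 ± 20.8 CPM per kb in AF and 230 ± 17.1 in DMSO libraries (SD, n = 4 each). On the opposite strand KCP covers 23.7% of the exon bases of ATP6V1F, so its level is uncertain if reads were counted without strand. ATP6V1E1 had 102 in AF and 86.1 in DMSO libraries. ATP6V1A had 37.2 in AF and 33.2 in DMSO libraries. ATP6V0C had 18.4 in AF and 21.6 in DMSO libraries, the lowest among the 14, but its level is uncertain because of the exon overlap given above, and some subunits outside the 44 were lower. Among subunit isoforms outside the 44, ATP6V1C2 fell by 1.00 ± 0.090 on the log2 scale (adjusted p = 6.87e-06, edgeR), the largest change of any subunit tested that was called. It had 17.4, 16.6, 16.8 and 18.3 CPM in the AF libraries, against 33.6, 32.5, 35.6 and 36.8 CPM in the DMSO libraries. The groups were far apart, at a level per kb of 5.57 in AF and 11.2 in DMSO libraries. On the opposite strand 29.9% of its exon bases are covered by AC092687.3 and PDIA6. If reads were counted without strand, the level and change of ATP6V1C2 are uncertain. Its counterpart ATP6V1C1, at 25.5 CPM per kb in AF and 24.1 in DMSO libraries, was not called, and the difference between the isoforms was not tested.

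**Figure D3:**
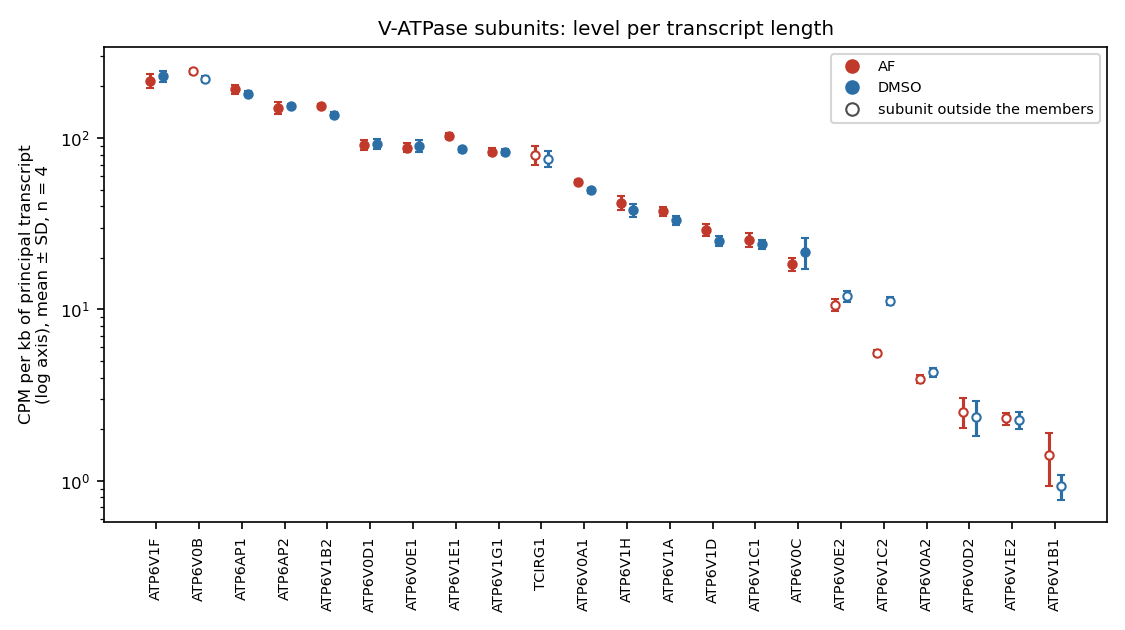
Mean level of each V-ATPase subunit in CPM per kb of its principal transcript (y axis, log scale), with SD over 4 libraries, for AF (red) and DMSO (blue); filled points are among the 44 genes and open points are other subunits. Levels run between 215 in AF and 230 in DMSO libraries for ATP6V1F and 18.4 in AF and 21.6 in DMSO libraries for ATP6V0C among the 44, and the gap between groups is clear for ATP6V1C2. Genes on the opposite strand cover 29.9% of the exon bases of ATP6V1C2 and 23.7% of those of ATP6V1F.

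Of the 3 transcription factor genes, TFE3 rose, and MITF and TFEB did not pass the test; differences between the 3 were not tested. TFE3 (chrX:49028726-49043486, minus strand) had 75.9, 80.9, 73.3 and 61.7 CPM in the AF libraries, against 59.3, 59.0, 57.3 and 56.8 CPM in the DMSO libraries. All AF libraries lay above all DMSO libraries, with AF replicate 4 closest to them. TFE3 rose by 0.33 ± 0.072 on the log2 scale (1.26-fold, adjusted p = 0.0067, edgeR), the largest value of the 44. MITF (chr3:69739435-69968337, plus strand) had 101, 83.6, 82.5 and 107 CPM in the AF libraries, against 84.0, 71.9, 76.0 and 82.6 CPM in the DMSO libraries. AF replicates 2 and 3 lay below DMSO replicate 1, and the log2 fold change of 0.25 ± 0.083 had an adjusted p of 0.0587 in edgeR. TFEB (chr6:41683978-41736259, minus strand) had 39.9, 38.5, 35.2 and 33.8 CPM in the AF libraries, against 40.1, 45.9, 42.4 and 37.4 CPM in the DMSO libraries. AF replicates 1 and 2 lay above DMSO replicate 4, so the groups overlapped. Its log2 fold change was -0.17 ± 0.084, with a 95% interval between -0.35 and 0.01 and an adjusted p of 0.192 in edgeR. Per kb, TFE3 stood at 21.4 CPM in AF and 17.0 in DMSO libraries, MITF at 19.4 in AF and 16.3 in DMSO libraries, and TFEB at 15.7 in AF and 17.6 in DMSO libraries. TFEC, the remaining family member, not among the 44, rose by 0.27 ± 0.062 (adjusted p = 0.00798, edgeR) and stood at 17.0 CPM per kb in AF and 14.1 in DMSO libraries.

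The 7 calls did not rest on the libraries equally. LAMP1, TFE3, ATP6V1E1 and ARSB kept an adjusted p under 0.05 in 8 of 8 fits that each left out 1 library, AF replicate 1 with its ribosomal RNA included. SGSH, MANBA and ATP6V0A1 kept it in 2 of 8 each. Leaving out DMSO replicate 1 or DMSO replicate 3 left 3 of the 44 called higher in place of 6, while calls over all genes also dropped, to 11.8% and 9.12% in place of 15.4%, and ARSB was the one called lower in all 8 fits. An earlier look at these counts had set libraries 1 and 4 of each group apart from libraries 2 and 3, a division that the labels do not give. With libraries 2 and 3 alone 19 of the 44 were called higher and 8 lower, when 29.7% of all genes were called. With libraries 1 and 4 alone 0 were, when 1.20% of all genes were called. Measured by chi-square per degree of freedom, libraries 2 and 3 were the closest pair in both groups (AF 4.47, DMSO 2.93). Libraries 1 and 4 were close to each other in DMSO (4.92) but far apart in AF (588), so they are not alike in both groups. A split found in the same counts that keeps the closest libraries together favours many calls in advance. The numbers of calls in these pairs are thus no separate test of auranofin. LAMP1 had a log2 fold change of 0.21 in libraries 1 and 4 and 0.41 in libraries 2 and 3, TFE3 0.24 and 0.41, ATP6V1E1 0.28 and 0.21, and ARSB -0.26 and -0.28. SGSH had 0.36 and 0.21, MANBA 0.13 and 0.23, and ATP6V0A1 0.14 and 0.19, with n = 2 per group in each pair. Groups that do not overlap keep their sign in any such split. For all of these genes but SGSH, whose groups overlap, the shared sign thus adds nothing to the calls.

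**Figure D4:**
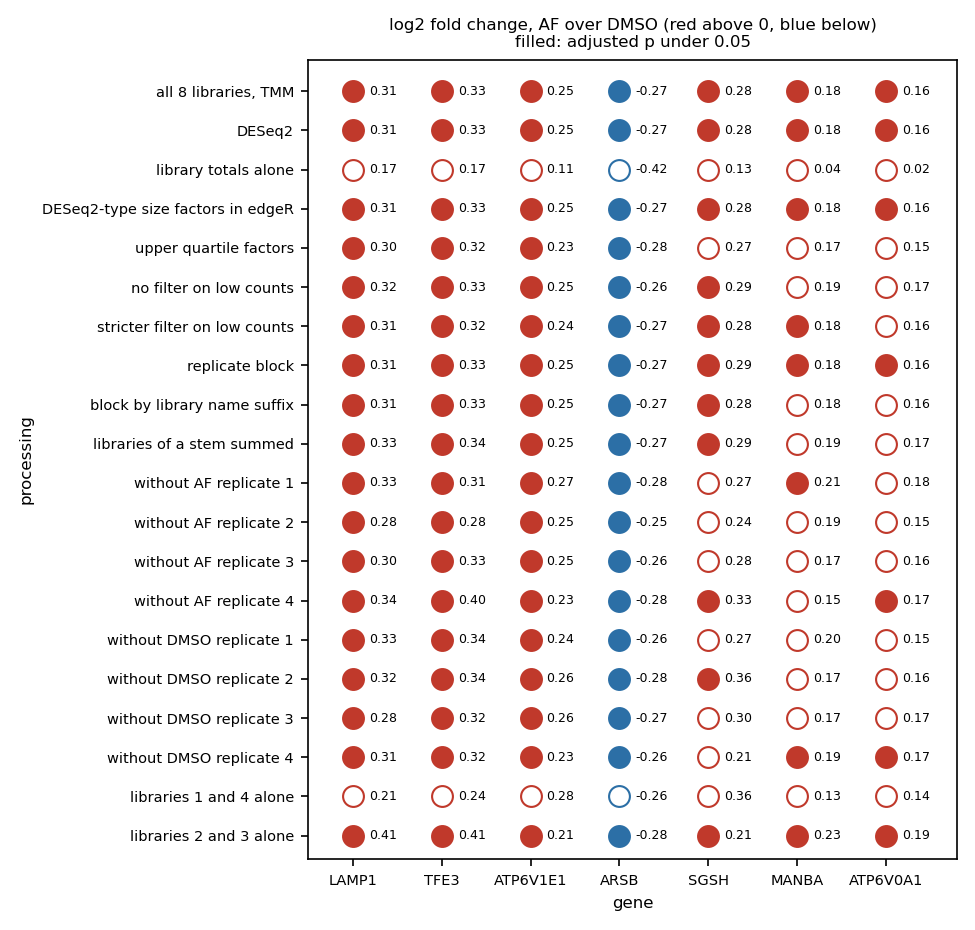
Log2 fold change of the 7 called genes (columns), AF over DMSO, under the fit with all 8 libraries and 19 alternatives (rows); red marks values above 0, blue below 0, and filled points have an adjusted p under 0.05. LAMP1, TFE3, ATP6V1E1 and ARSB are open only with library totals alone and with libraries 1 and 4 alone.

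Within each group, libraries differed by the base composition of the gene, a pattern seen after the values were known and described here for replicate 4. AF replicate 4 was the highest AF library for 18 of the 44 genes, with a median GC content of 45.4% in the principal transcript, and the lowest for 20 genes, with a median of 59.0%. DMSO replicate 4 was the highest DMSO library for 10 genes (median 44.2% GC) and the lowest for 21 (59.8%). Other libraries ran the opposite way: the genes for which AF replicate 1, AF replicate 2 or DMSO replicate 2 was highest had medians of 57.9%, 58.3% and 58.1% GC, and those for which it was lowest 45.4%, 46.8% and 45.2%. Across the 44 genes, the log2 deviation of replicate 4 from the mean of replicates 1 to 3 had a Pearson correlation with GC content of -0.71 in AF and -0.66 in DMSO libraries. Over 12536 protein-coding genes it had the same sign, at -0.59 in AF and -0.38 in DMSO libraries. The log2 fold change itself had a correlation with GC content of -0.24 across the 44. These points share libraries and are not independent, and the part of this pattern in the calls was not tested. Without AF replicate 4, 6 of the 7 calls remained, with MANBA lost and ARSA gained. Without DMSO replicate 4, 6 remained as well, with SGSH lost and ATP6V1A gained.

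**Figure D5:**
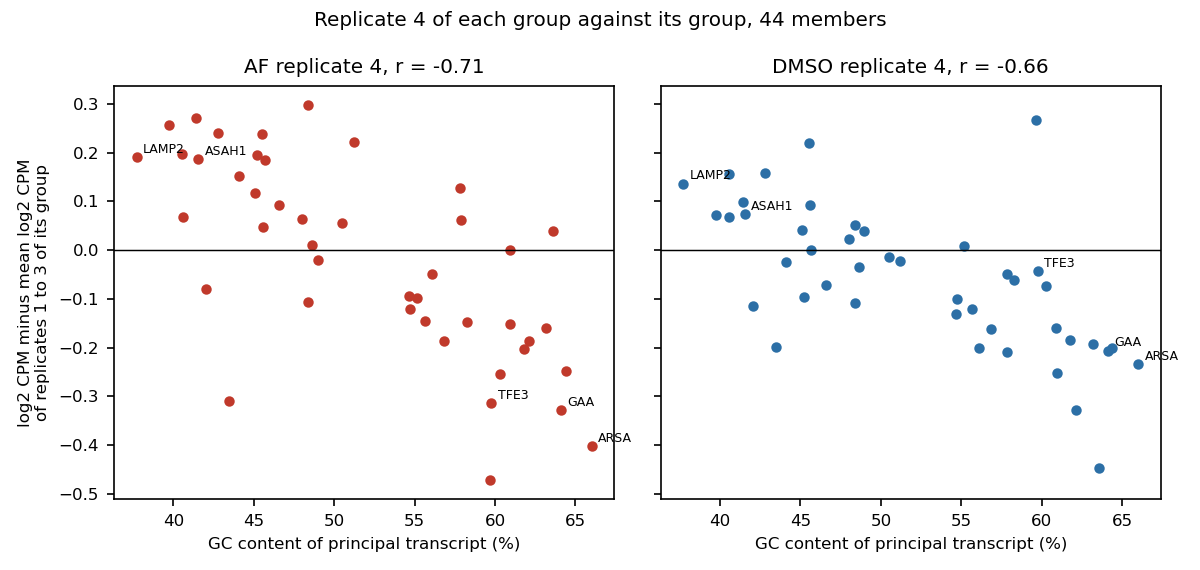
Log2 CPM of replicate 4 minus the mean log2 CPM of replicates 1 to 3 of its group (y axis) against the GC content of the principal transcript in percent (x axis) for the 44 genes, AF on the left and DMSO on the right. In both groups genes of low GC content such as LAMP2 lie above 0 and genes of high GC content such as ARSA below 0, with r of -0.71 in AF and -0.66 in DMSO libraries.

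Around the 44, 178 other lysosomal genes in 7 lists were in the table, of which 172 were tested: 26 rose (15.1%) and 14 fell (8.14%), with a median log2 fold change of 0.03. The background over all genes was 7.62% higher and 7.81% lower. Of 14 cathepsin and legumain genes 5 rose (35.7%) and 1 fell (7.14%). The aspartic protease gene CTSD rose by 0.43 ± 0.086 and the cysteine protease gene CTSL by 0.32 ± 0.065, while the low CTSV fell by 0.60 ± 0.096 (adjusted p = 0.00397, 0.00462 and 0.000779, edgeR). CTSD shares 41.7% of its exon bases with another gene on the same strand, so its counts are uncertain. Of 32 other hydrolase and cofactor genes tested 9 rose (28.1%) and 4 fell (12.5%). PLD4, an exonuclease of endolysosomes, fell by 0.74 ± 0.089, the hyaluronidase-family gene HYAL3 fell by 0.63 ± 0.091, and the carboxypeptidase gene SCPEP1 rose by 0.38 ± 0.060, and the highest adjusted p of these 3 was 0.000677 in edgeR. HYAL3 shares 14.3% of its exon bases with other genes on the same strand.

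Of 20 other pump subunit and assembly genes tested 2 rose (10%) and 2 fell (10%), against 7.62% and 7.81% of all genes. Beside ATP6V1C2, the assembly factor gene VMA21 fell by 0.25 ± 0.078. DMXL2, also of assembly, rose by 0.32 ± 0.063, and OXR1, whose product binds V1, rose by 0.32 ± 0.090. Of 35 other membrane proteins and transporters 3 rose (8.57%) and 2 fell (5.71%), near the shares of all genes. Among them was a relative of MCOLN1 in each direction: MCOLN3 rose by 0.53 ± 0.114 and MCOLN2 fell by 0.48 ± 0.085. The putative nucleic acid transporter gene SIDT2 rose by 0.25 ± 0.069. Of 24 genes for the sorting of enzymes to lysosomes 0 rose (0%, against 7.62% of all genes) and 3 fell (12.5%, against 7.81%). AP1B1, a subunit of the AP-1 adaptor, fell by 0.41 ± 0.075 and the sorting receptor gene SORL1 by 0.18 ± 0.054. CLN6, of the export of enzymes out of the endoplasmic reticulum, fell by 0.38 ± 0.056. The highest adjusted p among the genes named here was 0.0436 in edgeR. CLN6 shares 13.9% of its exon bases with another gene on the same strand.

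Of 29 genes in the list for TFEB control at the lysosome 3 rose (10.3%), the family member TFEC among them, and 2 fell (6.90%). Over all genes 7.62% rose and 7.81% fell, so these shares were near the background. SESN2, a leucine sensor that holds back mTORC1, rose by 0.57 ± 0.123 (adjusted p = 0.00657, edgeR), and LAMTOR1, which anchors the Ragulator complex, fell by 0.26 ± 0.053 (adjusted p = 0.00464, edgeR). Of 18 genes tested in the list of autophagy genes reported as TFEB targets 4 rose (22.2%), HIF1A among them, and 0 fell (0%). GABARAPL1, a member of the ATG8 family that coats autophagosomes, had 41.6, 40.8, 41.4 and 51.0 CPM in the AF libraries, against 25.5, 17.2, 20.5 and 21.9 CPM in the DMSO libraries, and WIPI1, which binds the early autophagosome membrane, had 55.3, 55.7, 53.4 and 57.7 CPM in the AF libraries, against 33.2, 24.7, 28.2 and 33.1 CPM in the DMSO libraries. The groups of both genes were far apart. Genes on the opposite strand cover 28.1% of the exon bases of WIPI1, so its level is uncertain if reads were counted without strand. GABARAPL1 rose by 1.04 ± 0.118 and WIPI1 by 0.90 ± 0.090 on the log2 scale (adjusted p = 5.13e-05 and 1.70e-05, edgeR), well beyond the 0.33 that was the largest value of the 44. HIF1A, listed with them, rose by 0.45 ± 0.088 (adjusted p = 0.00363, edgeR).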

How the data were processed

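The authors deposited a single table of unnormalised whole-number counts, a row for each gene and a column for each of the 8 libraries. Per the submitters' processing notes, STAR 2.6.1d, featureCounts, Subread 1.6.3 and GRCh38 were used. Not given in the sources used here: the annotation, and how strand, multi-mapping and overlap were handled. Titles gave the groups and replicate numbers, and 0 columns were left unmapped. No pair of libraries agreed within sampling noise (lowest chi-square per degree of freedom 2.93), so no library was taken as deposited in duplicate and each entered singly; this does not show that they are separate cultures.

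The 44 genes and the other lists were chosen with earlier results of these data known. Counts were fitted with edgeR 4.0.16 in R 4.3.3 (filterByExpr, TMM, glmQLFit and glmQLFTest, two-sided) over 17535 genes, with Benjamini-Hochberg adjustment, a threshold of 0.05 and 6 residual degrees of freedom; the biological coefficient of variation was 12.8%. A gene "rose" or "fell" where it passed this threshold. The standard error is the log2 fold change divided by the square root of F. Tests and 95% intervals used edgeR's total degrees of freedom, which add to these 6 an amount borrowed across genes. Intervals from the 6 alone would be wider. CPM use TMM-scaled library sizes; levels per kb use the principal transcript of GENCODE 29 on GRCh38, the source of positions, GC content and exon overlaps, which may differ from the authors' annotation. Promoter sequences are RefSeq's, on GRCh38.p14. Values in every library were given for TFEB, TFE3, MITF, LAMP1, LAMP2, ATP6V1A and called members; of the other members the one nearest the threshold and the most abundant of each role were named, and of each other list up to 3 called genes of smallest p plus the first in the minority direction. Further genes, the promoter examples and the libraries of ATP6V1C2, WIPI1 and GABARAPL1 were chosen after their values were seen. The fit was tested on simulated counts. Alternatives were DESeq2 1.42.0, other scalings and filters, blocks, summed libraries, and libraries left out. Errors cover the spread between libraries. Without molecular identifiers, counts are not independent molecules.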

Additional observations from a re-analysis of the deposited data

Results flagged for a closer look

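In 4 of the 88 sets of 4 libraries examined (each of the 44 genes in AF and in DMSO), 1 library stood far from the other 3, by the 95% limit of Dixon's gap-to-range ratio. Chance alone flags about 1 in 20 such sets. All 4 were replicate 4 of a group. ASAH1, acid ceramidase, stood at 2298 CPM in AF replicate 4, against 2003 to 2029 CPM in the other AF libraries. The same gene stood at 1991 CPM in DMSO replicate 4, against 1887 to 1904 CPM in the other DMSO libraries. GUSB, beta-glucuronidase, stood at 198 CPM in DMSO replicate 4, against 225 to 230.0 CPM in the other DMSO libraries. ATP6V1G1, a stalk subunit of the proton pump, stood at 83.9 CPM in DMSO replicate 4, against 90.2 to 91.2 CPM in the other DMSO libraries. None of these 3 genes was called between AF and DMSO.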

How the results depend on the processing

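The 6 higher and 1 lower calls among the 44 genes became 11 higher with DESeq2 (18.5% of all genes called, against 15.4%), 3 with upper quartile factors (15.3%) and 16 with the replicate block (23.9%), each with 1 lower. With libraries of a stem summed they were 5 and 1 (12.9%), MITF called and MANBA and ATP6V0A1 not, and with the name suffix as a block 4 and 1 (14.2%), again without those 2. With library totals alone, which give AF replicate 1 its ribosomal counts as depth, calls were 0 higher and 0 lower, and with libraries 1 and 4 alone likewise 0 and 0. With libraries 2 and 3 alone they were 19 and 8. This split was found in the same counts and keeps the closest libraries together, which favours many calls with libraries 2 and 3. Leaving out 1 library gave 3 to 6 higher and 1 lower. All genes called, 2705 in the fit with all libraries, numbered 883 with library totals alone, 4188 with the replicate block, 212 with libraries 1 and 4 and 5354 with libraries 2 and 3, and 1616 to 2964 with a library left out. Counts were lowest without AF replicate 3 (1660), DMSO replicate 2 (1616) or DMSO replicate 3 (1648). The median log2 fold change of the 44, 0.11, was -0.044 with library totals alone, 0.092 with upper quartile factors, 0.098 with libraries 2 and 3, and 0.089 to 0.109 with a library left out. Calls in the other lysosomal lists, 26 higher and 14 lower, were 2 and 8 with library totals alone, 2 and 2 with libraries 1 and 4, and 41 and 30 with libraries 2 and 3. Except for totals alone, where fewer reads of AF replicate 1 count as messenger RNA, the cause was not tested.

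With library totals alone, which shift all genes, 15 of the 44 changed sign, among those named with a value LAMP2 (-0.011), CD63 (-0.11), NEU1 (-0.023), ASAH1 (-0.023), PPT1 (-0.083) and TPP1 (-0.025); with libraries 1 and 4 alone 7 did, among them ATP6V0C (0.10) and FUCA1 (0.12). None of those that changed sign was called. Libraries of the same replicate number were not shown to be pairs: their deviations correlated at 0.09, 0.13, 0.03 and 0.19. AF replicates 1, 2 and 4 each correlated best with the DMSO library of the same number. AF replicate 3 correlated best with DMSO replicate 2, at 0.04. Whether the libraries are pairs was not tested. The depth and 4 libraries per group gave a median standard error of 0.07 on the log2 scale for the 44.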
